A study of Homo sapiens with 4 samples.

Results

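A set of 10 genes of transforming growth factor beta (TGF-beta) and bone morphogenetic protein (BMP) signalling were examined in HCT116 human colon carcinoma cells grown as multicellular spheroids (MCS) or as monolayers. They were the ligand genes TGFB1, TGFB2 and BMP4, the signal transducer SMAD3, the inhibitory SMAD6 and SMAD7, and the target genes ID1, ID2, ID3 and TGFBI. Members were all probe sets (groups of oligonucleotides that read one transcript) whose only gene symbol in the array annotation was one of these 10, which gave 22 of 41091 probe sets with 1 symbol and 10 of 19775 named genes. RNA came from 2 spheroid cultures and 2 monolayer cultures, all untreated and all of the same line, with 1 oligonucleotide array per culture. The cultures were independent, so p-values measure the spread between cultures of 1 line. HCT116 is a single colon cancer line that is known to carry inactivating mutations in TGFBR2, the type II receptor of TGF-beta, and whole spheroids, formed in wells coated against attachment, were lysed, so the rim and the poorly supplied core were read together.

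Ligands of this family bind pairs of type I and type II receptor kinases, which phosphorylate receptor SMADs. SMAD2 and SMAD3 carry the TGF-beta signal and SMAD1, SMAD5 and SMAD9 the BMP signal, each together with SMAD4, while SMAD6 and SMAD7 are induced by the pathway and restrain it. The ID genes are classical BMP targets. Their products lack a DNA-binding region and hold E proteins such as TCF3 and TCF12 away from DNA. In the intestinal epithelium BMP signals accompany differentiation toward the top of the crypt, and TGF-beta restrains proliferation.

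Signals are MAS5 intensities in arbitrary units. Each array had a mean of 500.1 units without its lowest and highest 2% of probe sets, so every difference is relative to the total signal of an array. Of 9 epithelial marker genes 6 averaged above 300 units, against 0 of 7 fibroblast, 0 of 4 endothelial and 0 of the 3 leukocyte markers with a probe set, and no marker was at 0. The summed signal of the fibroblast markers was 272 and 225 in spheroids and 382 and 206 in monolayers. Endothelial markers summed to 160 and 156 in spheroids against 328 and 204 in monolayers, and leukocyte markers to 137 and 75 against 122 and 63. The epithelial sum was 98164 and 93578 in spheroids against 80884 and 88783 in monolayers. The ratio of 3' to 5' signal, a measure of RNA integrity and labelling, was read from the ACTB and GAPDH controls. For ACTB it was 2.819 and 3.003 in spheroids and 2.643 and 2.339 in monolayers. For GAPDH it went the other way, at 0.931 and 0.921 in spheroids and 1.07 and 1.018 in monolayers. The part of these ratios in the results was not tested. In RNA from whole cultures, a change in the share of cells that express a gene and a change per cell cannot be told apart.

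ID1, ID2 and ID3 were higher in spheroids, while TGFB1, BMP4 and SMAD3 were not called. A gene was tested if its brightest probe set averaged above 300 units over the 4 arrays, and called if the limma adjusted p was under 0.05. Of the 10 genes, which were chosen with earlier results of these data known, 6 were tested. Of these 6, 3 were called higher and 0 lower, beside 19.0% called higher and 20.6% called lower among all 8721 genes tested. Both spheroid arrays lay above both monolayer arrays for ID1, ID2 and ID3, as for 33.4% of all genes tested, and the groups were separated in either direction for 70.0% of them. At an unadjusted p under 0.05 limma also gave 3 higher and 0 lower, beside 23.0% and 25.1% of all genes. The methods' t-test gave 1 higher and 0 lower, beside 14.0% and 16.4% of all genes. The median log2 difference (spheroid minus monolayer throughout) was 0.43 over the 6 genes and -0.03 over all genes. TGFB2, SMAD6, SMAD7 and TGFBI were below the signal threshold and are described by their signals.

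**Figure D1:**
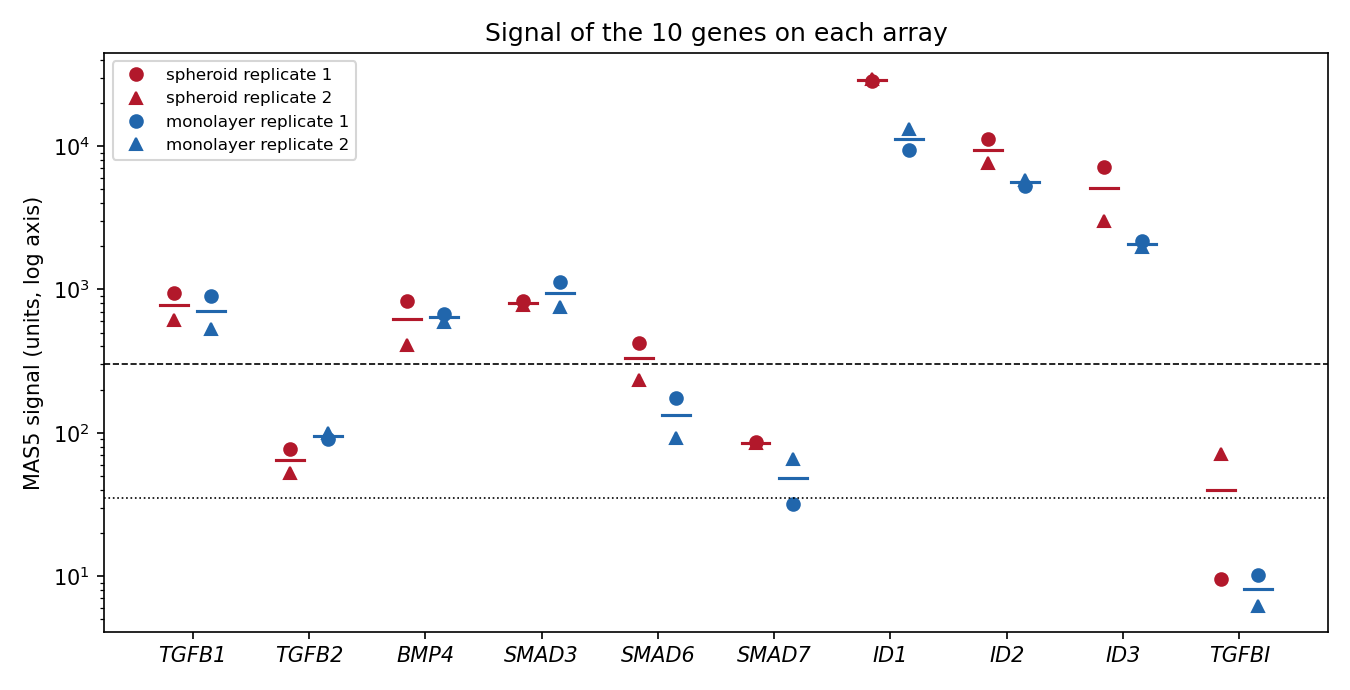
MAS5 signal (y, log axis, arbitrary units) of the brightest probe set of each of the 10 genes (x) on the 2 spheroid arrays (red) and the 2 monolayer arrays (blue), with a bar at each group mean, the testing threshold of 300 units (dashed) and the highest signal of the unspiked bacterial controls, 35.0 units (dotted). Both spheroid signals lay above both monolayer signals for ID1, ID2 and ID3, whereas the groups overlapped for TGFB1, BMP4 and SMAD3, and signals of different genes cannot be set against each other.

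ID1 showed the largest difference of the 6 tested genes. Its signal was 28384 and 29248 in spheroids, against 9430 and 13120 in monolayers. The spheroid cultures were close together and the monolayer cultures further apart, with no overlap. The means were 28816 ± 611 in spheroids and 11275 ± 2609 in monolayers (SD, n = 2 each). The log2 difference was 1.37 ± 0.14 (SE), with a 95% confidence interval of 1.06 to 1.68 and a limma adjusted p of 2.36e-05. The methods' t-test, which uses only the gene's own spread, gave an SE of 0.24 and an unadjusted p of 0.029. Of all tested genes, 96.2% had a log2 difference no larger than that of ID1.

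ID3 was also higher, but its spheroid cultures differed widely. Its signal was 7198 and 3008 in spheroids, against 2177 and 1964 in monolayers. Spheroid replicate 1 stood far above the other 3 arrays, and spheroid replicate 2 was still above both monolayer arrays. The log2 difference was 1.16 ± 0.29 (SE, 95% confidence interval 0.53 to 1.79, limma adjusted p = 0.00751). From the spread of ID3 alone, the methods' t-test gave an SE of 0.63 and an unadjusted p of 0.207. Without spheroid replicate 1 the difference was 0.53 and the call was lost (limma adjusted p = 0.0547), and without spheroid replicate 2 it was 1.78. The call was also lost with no signal filter (limma adjusted p = 0.0664).

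ID2 was higher in spheroids by a smaller difference. Its brighter probe set read 11126 and 7642 in spheroids, against 5308 and 5843 in monolayers, and its second, dimmer probe set 6095 and 3082 against 2008 and 1580. Both probe sets were highest in spheroid replicate 1 and neither showed overlap between groups. The brighter one gave a log2 difference of 0.72 ± 0.17 (SE, 95% confidence interval 0.36 to 1.09, limma adjusted p = 0.00463). From its own spread alone, the methods' t-test gave an SE of 0.28 and an unadjusted p of 0.122. When all 14162 probe sets above the threshold were tested singly, where 16.8% were called higher and 17.2% lower, the second probe set differed by 1.27 ± 0.27 (SE, limma adjusted p = 0.00538). The difference of the brighter probe set was 0.45 without spheroid replicate 1, and its call was then lost (limma adjusted p = 0.0638). A further probe set that the annotation assigns to both ID2 and the pseudogene ID2B was left out, and the 2 probe sets used could also read that copy.

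The calls of all 3 ID genes rested on the scaling of the arrays. By their names, 24 probe sets were taken to read Bacillus RNAs added to samples as controls. The labels do not state which RNAs were added. These 24 probe sets were 1.82-fold brighter in spheroids. Scaling the arrays to these controls moved the median of all genes to -0.87, with differences of 0.51 for ID1 (limma adjusted p = 0.251), -0.14 for ID2 (0.781) and 0.30 for ID3 (0.529). The SEs of the 3 genes rose from 0.14, 0.17 and 0.29 on the deposited scale to 0.39, 0.40 and 0.41 on the scale of the controls. On that scale the ID genes still lay above the median gene, and ID2 turned in sign.

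**Figure D2:**
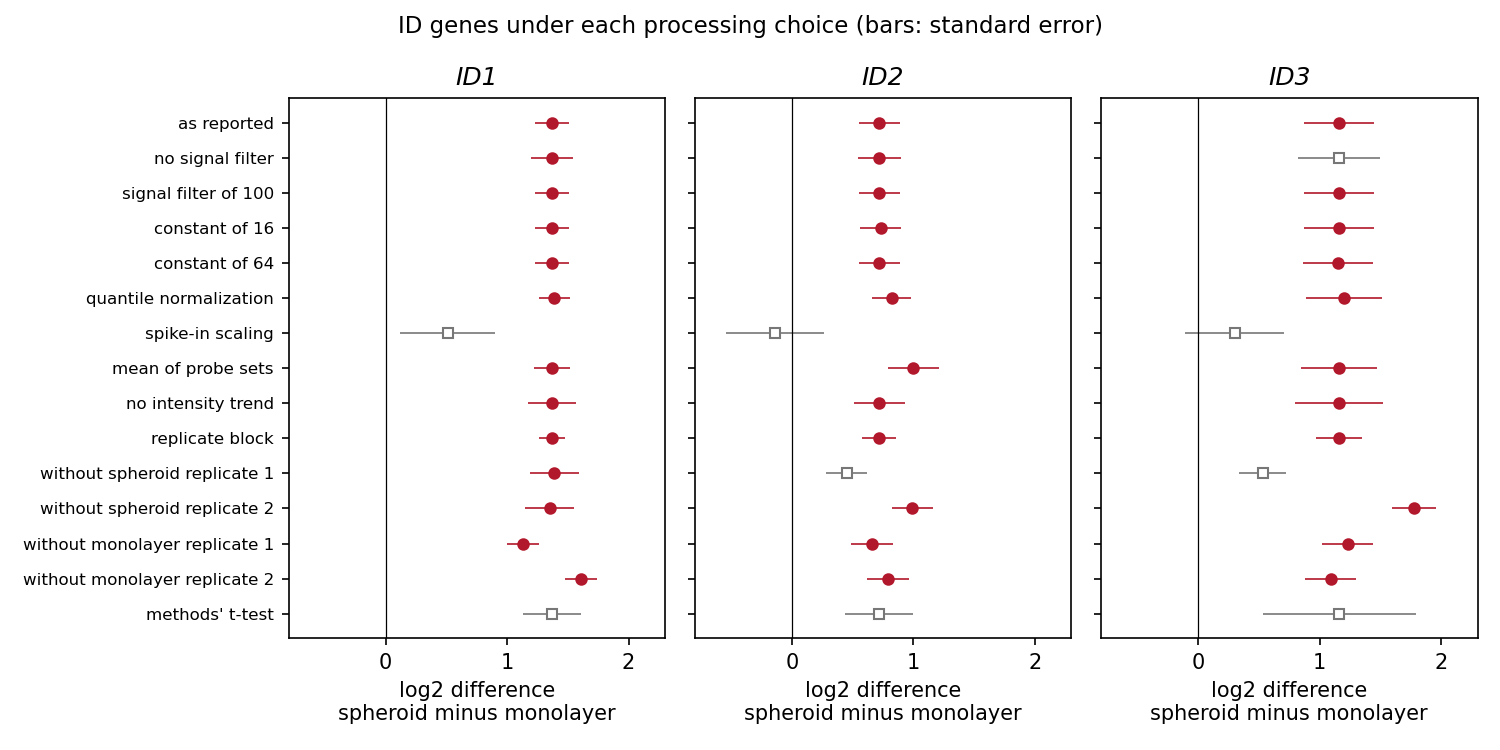
Log2 difference between spheroids and monolayers (x, bars: standard error) of ID1, ID2 and ID3 under each processing choice (y), with filled red circles where the adjusted p of limma or of the methods' t-test was under 0.05 and open grey squares where it was not. Spike-in scaling lowered the differences to 0.51, -0.14 and 0.30, and leaving out spheroid replicate 1 lowered ID2 to 0.45 and ID3 to 0.53 but left ID1 at 1.39.

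The sequences before the starts of the 3 ID genes are shown because these genes were all called higher in spheroids on the deposited scale. They are the 250 bases upstream of the RefSeq start (GRCh38.p14), 5′ to 3′ on the gene's strand, at chr20:31605039-31605288 (plus strand) for ID1, chr2:8681806-8682055 (plus strand) for ID2 and chr1:23559502-23559751 (minus strand) for ID3. Capitals mark 3 searched motifs, namely the SMAD box CAGAC or its reverse GTCTG, the BMP-type palindrome GGCGCC, and the CCAAT box CCAAT or its reverse ATTGG.
ID1: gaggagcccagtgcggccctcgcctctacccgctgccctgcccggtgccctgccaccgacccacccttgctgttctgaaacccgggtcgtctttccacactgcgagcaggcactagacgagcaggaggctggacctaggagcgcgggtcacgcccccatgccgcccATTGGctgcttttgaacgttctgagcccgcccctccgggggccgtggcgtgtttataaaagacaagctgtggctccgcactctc
ID2: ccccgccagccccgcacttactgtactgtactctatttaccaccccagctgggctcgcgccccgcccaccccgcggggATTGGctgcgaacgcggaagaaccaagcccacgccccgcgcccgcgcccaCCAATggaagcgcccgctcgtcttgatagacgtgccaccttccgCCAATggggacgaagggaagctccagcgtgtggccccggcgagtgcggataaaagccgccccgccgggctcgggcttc
ID3: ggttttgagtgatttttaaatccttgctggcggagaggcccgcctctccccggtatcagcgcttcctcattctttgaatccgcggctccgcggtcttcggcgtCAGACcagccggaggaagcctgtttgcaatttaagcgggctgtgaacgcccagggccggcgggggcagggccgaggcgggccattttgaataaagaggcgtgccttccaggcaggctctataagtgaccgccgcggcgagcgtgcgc
ID1 had 1 CCAAT box and ID2 had 3, while ID3 had none of these and 1 SMAD box. None of the 3 windows held GGCGCC. Among 34788 windows of the same length in the promoter table, 11138 held a CCAAT box, 13224 (38.0%) a SMAD box and 5702 (16.4%) GGCGCC. Motif letters are a description of the window and do not show binding. The BMP-responsive elements known for Id1 in the mouse lie further upstream than such a window reaches.

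Neither of the 2 tested ligand genes was called. TGFB1, which encodes the main TGF-beta ligand, had signals of 944 and 614 in spheroids and 893 and 529 in monolayers. Replicate 1 was the brighter array in each group and the groups overlapped. The log2 difference was 0.14 ± 0.27 (SE, 95% confidence interval -0.46 to 0.74, limma adjusted p = 0.717), an interval that also holds the difference of ID2. Its second probe set was dim, at 75.9 and 21.1 in spheroids and 106 and 62.7 in monolayers.

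BMP4 encodes a BMP ligand that activates the receptors acting on ID genes. Its signal was 831 and 408 in spheroids and 678 and 596 in monolayers. The spheroid arrays enclosed both monolayer arrays. The log2 difference was -0.12 ± 0.29 (SE, 95% confidence interval -0.74 to 0.51, limma adjusted p = 0.776), and it was 0.37 without spheroid replicate 2 and -0.60 without spheroid replicate 1. With spike-in scaling BMP4 was called lower (-0.94, limma adjusted p = 0.0485), close to the median of all genes on that scale.

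TGFB2 was dim on all 5 of its probe sets, which did not share a direction. The brightest read 77.1 and 52.3 in spheroids and 90.0 and 98.8 in monolayers. Another read 91.7 and 35.8 in spheroids, against 13.5 and 6.21 in monolayers. A further one read 3.31 and 4.03 in spheroids, against 21.3 and 29.6 in monolayers. The groups did not overlap on any of these 3, but they were ordered differently. The 3 bacterial control probe sets taken by their names to have no added RNA had signals of 4.47 to 35.0. The remaining 2 probe sets were above 35.0 on 1 array each. With no signal filter, where 6.76% of 19775 genes were called higher and 6.66% lower, TGFB2 was not called (log2 difference -0.40, limma adjusted p = 0.620).

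**Figure D3:**
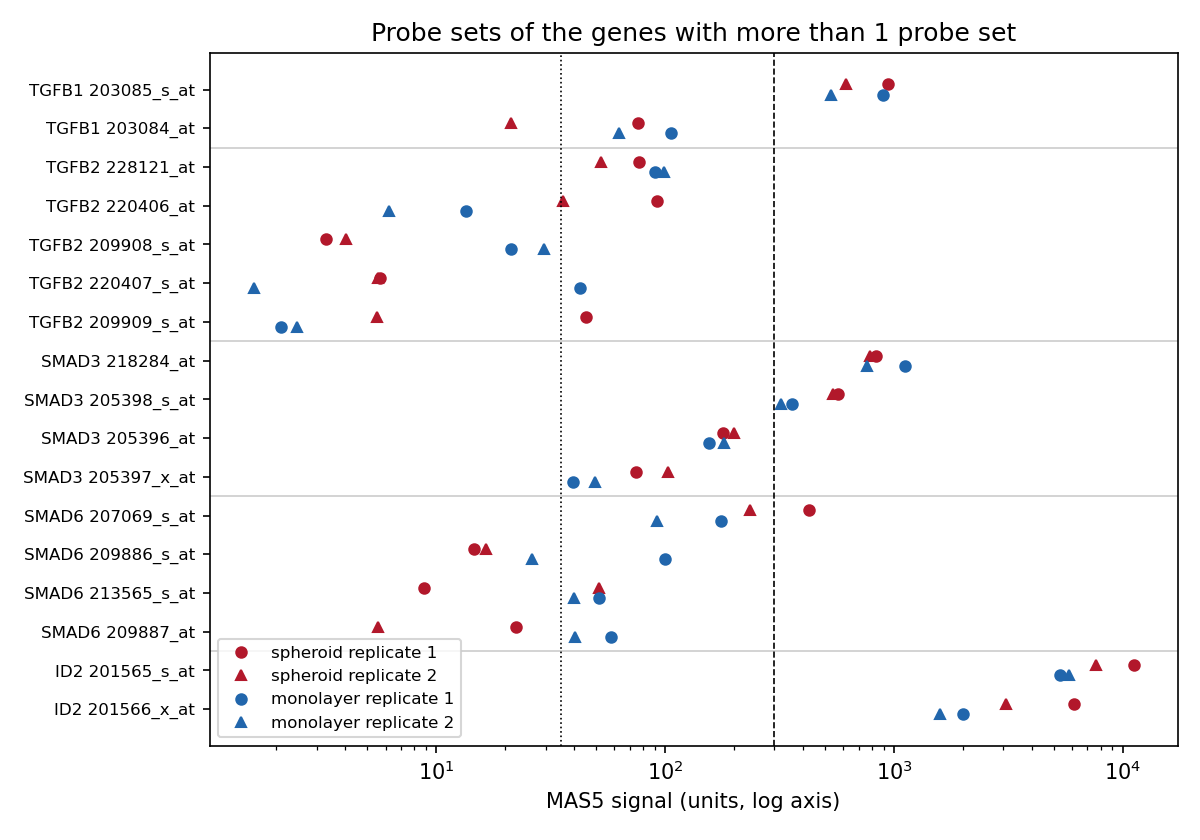
MAS5 signal (x, log axis, arbitrary units) on each spheroid array (red) and monolayer array (blue) of every probe set (y) of the 5 genes with more than 1, with the testing threshold of 300 units (dashed) and the highest unspiked control signal of 35.0 units (dotted). Both ID2 probe sets were higher in spheroids, the SMAD3 probe set at 555 ± 20.2 against 340 ± 27.7 units was separated while the brightest SMAD3 probe set overlapped, and those of TGFB2 and SMAD6 were ordered in both directions.

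SMAD3, the receptor SMAD of the TGF-beta branch, gave different results on its probe sets. The brightest read 834 and 782 in spheroids and 1119 and 759 in monolayers. Monolayer replicate 1 was the highest array and the groups overlapped. The log2 difference was -0.18 ± 0.22 (SE, 95% confidence interval -0.66 to 0.29, limma adjusted p = 0.538). The next probe set read 569 and 540 in spheroids, against 359 and 320 in monolayers. Here both spheroid arrays were above both monolayer arrays, and in the fit over single probe sets the log2 difference was 0.66 ± 0.23 (SE, limma adjusted p = 0.0475). The 2 dimmest read 179 and 200 in spheroids against 156 and 181 in monolayers, and 74.6 and 103 against 39.5 and 49.4. The mean over the 2 probe sets above the threshold was not called (0.24, limma adjusted p = 0.377). With spike-in scaling the brightest probe set was called lower (-1.02, limma adjusted p = 0.0331), as were 45.8% of all genes on that scale. The sign for SMAD3 thus differed between probe sets, and the call also between scalings.

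The inhibitory SMADs were dim. SMAD6 had 1 probe set that was clearly above the unspiked controls on all 4 arrays, at 426 and 235 in spheroids against 175 and 92.5 in monolayers. Both spheroid arrays were above both monolayer arrays. Its mean over the arrays, 232 units, was under the threshold of 300. With a threshold of 100, where 16.8% of 11297 genes were called higher, the gene was called higher (log2 difference 1.12, limma adjusted p = 0.0337), and with no threshold it was not (1.12, limma adjusted p = 0.138). The other 3 SMAD6 probe sets averaged 31.6 to 39.2 units, and on 2 of them the spheroid arrays were below the monolayer arrays. SMAD7 read 86.6 and 84.2 in spheroids and 31.8 and 65.6 in monolayers, with monolayer replicate 1 within the range of the unspiked controls. With no threshold SMAD7 was not called (0.57, limma adjusted p = 0.463).

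TGFBI, a secreted matrix protein gene named for its induction by TGF-beta, read 9.48 and 70.6 in spheroids and 10.1 and 6.22 in monolayers. Of these 4 signals only that of spheroid replicate 2 was above the unspiked controls, and with no threshold the gene was not called (0.70, limma adjusted p = 0.392).

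The rest of the pathway was read from a list of 92 other genes. This list was chosen with earlier results of these data known, so its shares are a description of the list only. A probe set carrying only the gene's symbol existed for 88, and 46 passed the signal threshold. Of these, 15 were called higher, 2 lower and 29 were not called (32.6% and 4.35% of those tested, beside 19.0% and 20.6% of all genes). Among the genes called higher, SMAD9, BMP1 and ANGPTL4 passed the threshold only through the spheroid arrays (monolayer means 185, 259 and 104 units). Of the genes not called, LTBP4 did the same and MSX2 passed only through the monolayer arrays. The median log2 difference was 0.17 over the list and -0.03 over all genes. With spike-in scaling the counts were 3 higher and 10 lower of 46, where 2.10% of all genes were called higher and 45.8% lower, with a median of -0.67 beside -0.87 for all genes. Genes of the list that were not tested had mean signals from 5.20 (BMPER, a BMP-binding antagonist) to 299 (FN1, fibronectin).

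**Figure D4:**
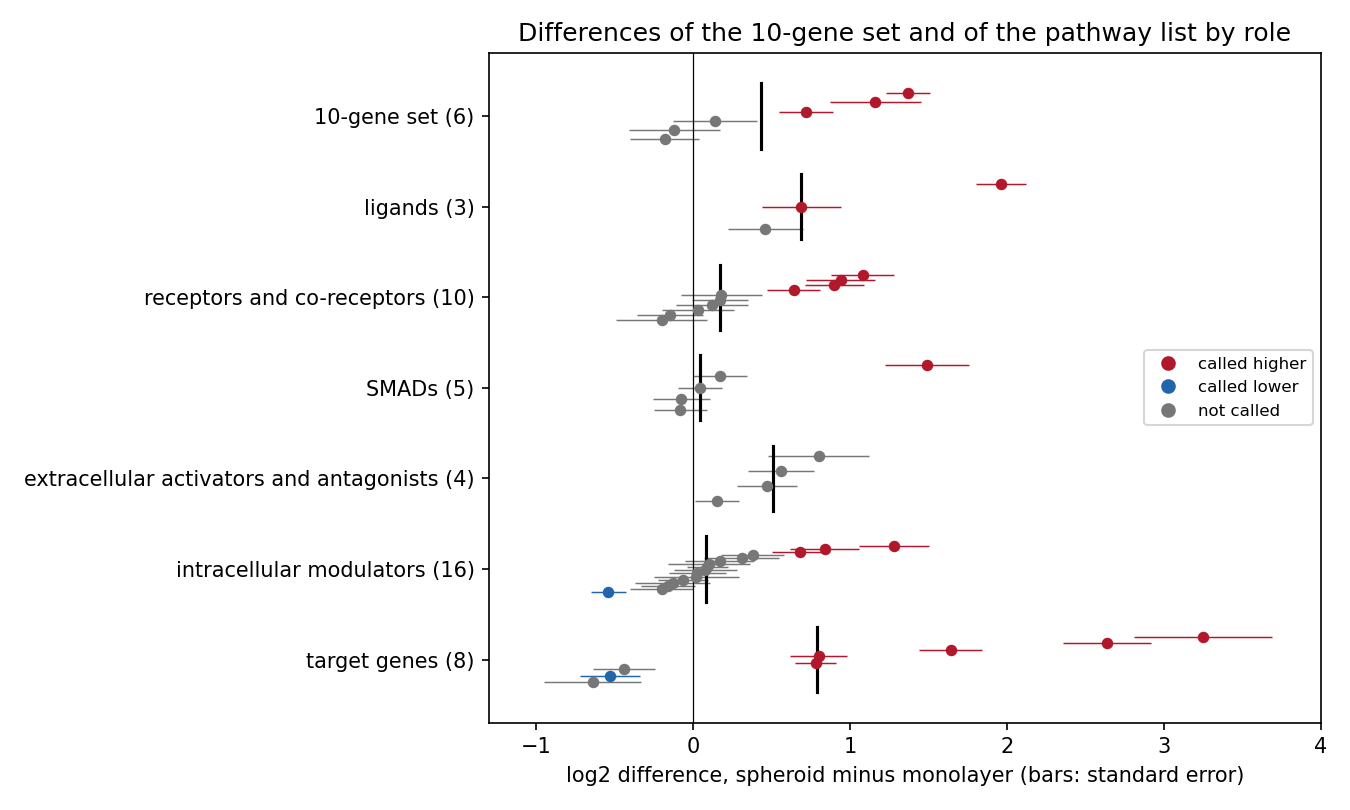
Log2 difference between spheroids and monolayers (x, bars: standard error) of the 6 tested genes of the 10-gene set and of the 46 tested genes of the pathway list by role (y, number tested in brackets), coloured by call (red for higher in spheroids, blue for lower, grey for neither), and with black bars for the medians. Called differences were mostly to the right of 0, and the medians ran from 0.044 for SMADs to 0.79 for target genes, all on the deposited scale and not on that of the spike-in controls.

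Receptor genes were higher or not called. Of 10 tested, 4 were higher and 0 lower (40.0% and 0%, beside 19.0% and 20.6% of all genes). At an unadjusted p under 0.05 the counts were 4 and 0 in limma (23.0% and 25.1% of all genes) and 3 and 0 in the methods' t-test (14.0% and 16.4%). The activin type II receptor ACVR2B had signals of 1352 and 1123 in spheroids, against 560 and 572 in monolayers (log2 difference 1.08 ± 0.20, SE, limma adjusted p = 0.00119). BMPR2, the type II BMP receptor, had 763 and 871 in spheroids against 463 and 365 in monolayers (0.94 ± 0.22), and the type I receptor ACVR1 had 1773 and 2041 against 1162 and 872 (0.90 ± 0.19). These 3 genes showed no overlap between groups, as for 70.0% of all genes tested, and kept their calls when any 1 array was left out. In the fit over single probe sets, a second ACVR2B probe set was not called (0.66 ± 0.26, limma adjusted p = 0.0762). A second BMPR2 probe set was called higher there (0.80 ± 0.26, limma adjusted p = 0.0336). TGFBR1, the type I TGF-beta receptor, differed by 0.64 ± 0.17, and its call was lost without spheroid replicate 2 (0.58) or monolayer replicate 2 (0.51). With spike-in scaling none of these 4 was called. TGFBR2 itself had 601 and 722 in spheroids and 686 and 791 in monolayers, with overlap, and was not called (-0.15 ± 0.21, limma adjusted p = 0.595). Only with spike-in scaling was TGFBR2 called lower (-0.98, limma adjusted p = 0.0405), as were 45.8% of all genes on that scale.

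Of 5 other SMADs tested, 1 was called higher and 0 lower on the brightest probe set. These are 20.0% and 0%, beside 19.0% and 20.6% of all genes, so the share called higher was near the background. SMAD9 was the called gene. This BMP-branch SMAD had signals of 671 and 488 in spheroids, against 211 and 159 in monolayers. It passed the testing threshold only through the spheroid arrays (monolayer mean 185 units). The groups did not overlap, as for 70.0% of all genes tested. The log2 difference was 1.49 ± 0.27 (SE, limma adjusted p = 0.00110), and 0.71 with spike-in scaling (limma adjusted p = 0.140). SMAD1, SMAD2 and SMAD5 differed by -0.081 ± 0.17, 0.044 ± 0.14 and 0.17 ± 0.17 and were not called. SMAD4, the shared partner, was not called on its brightest probe set (-0.075 ± 0.18, limma adjusted p = 0.770), whereas a second probe set differed by 1.07 ± 0.25 in the fit over single probe sets (limma adjusted p = 0.00799). SMAD2 also had 2 further probe sets called higher in that fit, at 0.54 ± 0.16 and 0.71 ± 0.21.

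Of 3 tested ligand genes 2 were higher and 0 lower (66.7% and 0%, beside 19.0% and 20.6% of all genes). The counts were the same at an unadjusted p under 0.05 in limma (23.0% and 25.1% of all genes) and in the methods' t-test (14.0% and 16.4%). GDF15, a distant family member induced by many stresses that does not signal through the receptors named here, had 5641 and 6295 in spheroids against 1677 and 1354 in monolayers (1.96 ± 0.16). BMP1 is a metalloproteinase in spite of its name, and had 413 and 462 in spheroids against 262 and 256 in monolayers (0.69 ± 0.25, limma adjusted p = 0.0438). It passed the testing threshold only through the spheroid arrays (monolayer mean 259 units). The call of BMP1 was lost when any 1 of the 4 arrays was left out, at 0.61 to 0.76. It was also lost with quantile normalization (0.49, limma adjusted p = 0.126), no signal filter (0.142) and a filter of 100 units (0.0503). The fit over single probe sets did not call it either (0.0519). BMP2 and INHBA averaged 22.5 and 22.8 units, within the range of the unspiked controls.

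Extracellular regulators gave no call. Of 4 tested, 0 were higher and 0 lower by limma, beside 19.0% and 20.6% of all genes. At an unadjusted p under 0.05, 3 were higher in limma (23.0% of all genes) and 1 in the methods' t-test (14.0%). LTBP3 and LTBP4, which anchor latent TGF-beta in the matrix, differed by 0.56 ± 0.21 (limma adjusted p = 0.0527) and 0.80 ± 0.32 (limma adjusted p = 0.0611). LTBP3 passed without spheroid replicate 2 (0.78) or monolayer replicate 1 (0.79), and LTBP4 without monolayer replicate 1 (1.22). A second LTBP3 probe set differed by -0.065.

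Of 16 tested intracellular modulators, 3 were higher and 1 lower. These are 18.8% and 6.25%, beside 19.0% and 20.6% of all genes, so the share called higher was at the background. SKIL, a co-repressor that binds SMADs, had signals of 1270 and 1004 in spheroids, against 513 and 390 in monolayers (1.28 ± 0.22, limma adjusted p = 0.000825). SMURF1, a ubiquitin ligase that marks BMP-branch SMADs for degradation, differed by 0.84 ± 0.22 and lost its call without spheroid replicate 2 (0.64). TGIF1, a further SMAD co-repressor, differed by 0.68 ± 0.18 and lost its call without spheroid replicate 1 (0.50) or monolayer replicate 2 (0.49). Its call was also lost with probe sets averaged (0.60, limma adjusted p = 0.108). A second TGIF1 probe set was not called in the fit over single probe sets (0.52 ± 0.40, limma adjusted p = 0.348). STRAP, which binds the TGF-beta receptors and SMAD7, was the lower gene, with 16247 and 16550 in spheroids against 23200 and 24488 in monolayers (-0.54 ± 0.11, limma adjusted p = 0.00180). Its groups did not overlap, as for 70.0% of all genes tested, and its call held without any 1 array. With spike-in scaling STRAP was still called lower (-1.40), whereas SKIL (0.45, limma adjusted p = 0.346), SMURF1 (0.012, 0.983) and TGIF1 (-0.17, 0.730) lost their calls.

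Of 8 tested target genes, 5 were higher and 1 lower (62.5% and 12.5%, beside 19.0% and 20.6% of all genes). The list was chosen with earlier results of these data known, and the part of that choice in these shares was not tested. ANGPTL4, a secreted inhibitor of lipoprotein lipase that hypoxia also induces, had signals of 1255 and 895 in spheroids, against 177 and 31.0 in monolayers (3.25 ± 0.44, limma adjusted p = 0.000137). It passed the testing threshold only through the spheroid arrays (monolayer mean 104 units). Monolayer replicate 2 was within the range of the unspiked controls, where the constant of 32 added before taking logarithms limits the difference. JUNB, an AP-1 transcription factor that many stimuli induce early, had 3776 and 2481 in spheroids against 654 and 326 in monolayers (2.64 ± 0.28). COL1A1, the collagen I chain, differed by 1.64 ± 0.20 and CDKN1A, the p21 inhibitor of cyclin-dependent kinases, by 0.80 ± 0.18. The other called genes, named after their values were seen, were KLF10, a TGF-beta-inducible transcription factor (0.78 ± 0.13), and TPM1, a tropomyosin (-0.53 ± 0.19). The call of TPM1 was lost without spheroid replicate 2 (-0.38), monolayer replicate 1 (-0.44) or monolayer replicate 2 (-0.62), and also with no signal filter (limma adjusted p = 0.0855), with probe sets averaged (0.0582), with no intensity trend (0.0537) and in the fit over single probe sets (0.0528). With spike-in scaling ANGPTL4 (2.52), JUNB (1.81) and TPM1 (-1.37) were still called. On that scale COL1A1 lost its call (0.80, limma adjusted p = 0.0905), and CDKN1A and KLF10 lost theirs and turned in sign, at -0.053 and -0.082.

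The E proteins that ID proteins bind were not called on the deposited scale. TCF3 had signals of 2910 and 2670 in spheroids and 3680 and 3029 in monolayers (-0.26 ± 0.16, limma adjusted p = 0.218). Both spheroid arrays were below both monolayer arrays, as for 36.6% of all genes tested. With spike-in scaling TCF3 was called lower (-1.11, limma adjusted p = 0.0192), as were 45.8% of all genes on that scale. TCF12 had 2478 and 2343 in spheroids and 2411 and 2677 in monolayers (-0.075 ± 0.16, limma adjusted p = 0.731). TCF4 averaged 30.9 units, within the range of the unspiked controls.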

How the data were processed

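Total RNA from 2 spheroid and 2 monolayer cultures was hybridized as biotin-labelled cRNA to 1-colour oligonucleotide arrays. For each probe set the authors deposited 1 intensity on a linear scale, normalized with MAS5 (version and genome build are not given in the sources used here). Detection calls were not used here. Of 54675 probe sets, 62 were controls, 41091 of the rest carried a single gene symbol, 1801 carried more than 1 and the annotation did not list 11721. Symbols were checked against the RefSeq gene table (GRCh38.p14), which changed 0. The scale was log2(signal + 32), on which changes of dim genes are understated. Genes were represented by their probe set with the highest mean, kept above 300 units after the study's threshold, and fitted with limma (version 3.58.1, R 4.3.3; lmFit, eBayes with an intensity trend, two-sided, Benjamini-Hochberg adjustment over 8721 genes, 2 residual and 10.5 prior degrees of freedom). The fit was tested on simulated data. Named genes were the 10 members, up to 4 called genes of each role of the pathway list by size of difference (or 2 with the smallest p), the E proteins, TGFBR2 and SMAD4. Members and lists were chosen with earlier results of these data known. The fits were repeated with other constants, filters, probe set rules and scalings, without the trend, with a replicate block, without each array, with the methods' t-test (named there for other assays), and with single probe sets, the last added after seeing the data. The number of arrays limits the precision.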

Additional observations from a re-analysis of the deposited data

How the results depend on the processing

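Under the 2 other constants, quantile normalization, no intensity trend and the replicate block, 3 of the 6 tested genes were higher and 0 lower. Under these settings 1515 to 2114 of all 8721 genes were higher and 1526 to 2301 lower. With no signal filter 2 genes of the set were higher, beside 6.76% of 19775 genes. With a filter of 100 units 4 were higher, beside 16.8% of 11297 genes. Higher counts were 0 with spike-in scaling (2 lower, BMP4 and SMAD3), 0 without _x_at and _s_at probe sets, which leaves no ID probe set to test, 0 with the methods' t-test after adjustment (which called 1 gene higher and 1 lower of all 8721) and 1 to 3 with an array left out (1 without spheroid replicate 1). For the pathway list, spike-in scaling gave 3 higher and 10 lower, the methods' t-test 0 and 0, and 1 was lower with no signal filter, with no intensity trend, without _x_at and _s_at probe sets or with probe sets averaged, and 1 to 2 with an array left out (1 without spheroid replicate 2). With spike-in scaling the sign turned for TGFB1 (-0.69), ID2 (-0.14), BMP1 (-0.096), TGFBR1 (-0.20), LTBP3 (-0.29), TGIF1 (-0.17), CDKN1A (-0.053) and KLF10 (-0.082). The sign also turned for TGFB1 (-0.16 without spheroid replicate 1, -0.22 without monolayer replicate 2, range with an array left out -0.22 to 0.50), BMP4 (0.37 without spheroid replicate 2, range with an array left out -0.60 to 0.37), SMAD3 (0.24 with probe sets averaged, 0.086 without monolayer replicate 1, range -0.46 to 0.086) and SMAD4 (0.50 with probe sets averaged, 1.07 without _x_at and _s_at probe sets, 0.13 without spheroid replicate 1, 0.033 without monolayer replicate 2, range -0.28 to 0.13). The causes were not tested. Where an array is left out, the lone sample is assumed to vary like the other group. The labels state no pairing of samples beyond a shared replicate number. Deviations within the 2 groups correlated at 0.32 across genes, and a replicate block gave 2114 higher and 2301 lower genes against 1656 and 1799 without it, kept all 20 called genes of the set and list, and also called LTBP3 (0.56) and LTBP4 (0.80).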
